A study of Bos taurus with 6 samples.

Results

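bta-miR-103 and bta-miR-107 are a pair of bovine miRNAs that share their seed and are both encoded inside pantothenate kinase genes. They were taken by name from the deposited miRNA table and are 2 of its 1028 rows. Both were among the 341 miRNAs with a value above 0 in at least 1 library and among the 251 that were tested between temperatures.

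Small RNA was sequenced from extracellular vesicles (EVs), membrane-enclosed particles that cells release, in the conditioned medium of bovine oviductal organoids. Organoids are self-organised cultures, here grown from the scraped oviduct epithelium of abattoir-derived diestrus cows and passaged once. The heat stress (HS) group had 3 EV libraries from organoids that spent their final day at 42 °C, and the thermoneutral group had 3 from organoids kept at 37 °C. All organoids had been grown at 37 °C until then, in a medium with added growth factors and kinase inhibitors. Each replicate (A, B and C, the order in which values are given) was a pool of 2 animals. The same oviducts were represented at both temperatures, but no source ties a library to its animals.

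miRNAs guide Argonaute proteins to transcripts that pair with the seed, the stretch near the 5′ end of the mature miRNA, and lower the output of those transcripts. In human, the mature forms of miR-103 and miR-107 differ in a single base near the 3′ end, outside the seed, so both are thought to reach the same targets. Their host genes encode the enzyme of the first step of coenzyme A synthesis. In mouse liver and fat the pair is known to reduce insulin sensitivity through caveolin-1, and in human cancer cells it is known to lower Dicer, the enzyme that matures most miRNAs. miR-103 is also in wide use as a reference for qPCR of miRNAs in serum and EVs.

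The names of the pair matched 3 miRNA genes in RefSeq (assembly ARS-UCD2.0). Of these, MIR103-1 lay within the bounds of PANK3 and MIR103-2 within those of PANK2, while MIR107 lay within those of PANK1. No other gene entry overlapped any of them. The deposited table gives 1 row for bta-miR-103, so the output of its 2 genes cannot be told apart. The table of genes holds no exons, and whether the miRNAs lie in introns was not checked here.

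The values are TMM-adjusted CPM (counts per 1000000, scaled between libraries), made by the authors. Every value above 0 was a whole multiple (within 0.01) of the smallest one in its library, so the miRNA reads behind the values were recovered. They ranged from 72580 to 213877 per library at 42 °C and from 31640 to 150214 at 37 °C. One read was worth 5.53 to 28.7 CPM at 42 °C and 5.87 to 17.0 CPM at 37 °C. bta-miR-1246 took 26.7 to 71.8% of the reads at 42 °C and 24.99 to 49.99% at 37 °C, and it is left out of the denominator where shares are given below. All 6 miRNAs listed for epithelium (such as miR-200b and miR-200c) were detected, and together they took 1.46 to 5.32% of the other reads at 42 °C and 3.02 to 4.48% at 37 °C. Of 5 miRNAs typical of multiciliated cells, 3 had a read, and bta-miR-449b and bta-miR-449c had none. Replicate B at 42 °C stood apart with 20.1% of the reads other than miR-1246 from 3 erythroid miRNAs (3.12 to 9.12% in the other libraries). It also had 11.2% from 2 liver miRNAs (1.82 to 4.87% in the other libraries). The 4 leukocyte miRNAs listed took 0.342 to 1.74% in the HS libraries and 0.0373 to 0.0935% in the thermoneutral ones, and their part in the results on the pair was not tested.

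bta-miR-103 was a mid-abundance miRNA of the EVs and was lower in every HS library than in any thermoneutral one. It stood at 779, 393 and 804 CPM in the HS libraries, against 1139, 1075 and 1219 CPM in the thermoneutral ones. The groups did not overlap, and the lowest value by far was that of replicate B at 42 °C. The means were 659 ± 231 CPM at 42 °C and 1145 ± 72.1 CPM at 37 °C (SD, n = 3 each), a ratio of 0.575. By mean CPM it ranked 69 at 42 °C and 50 at 37 °C among the miRNAs of the table.

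The difference did not pass the test. On the log2(CPM + 10) scale the fold change of bta-miR-103 was -0.86 (standard error 0.43, 95% interval -1.79 to 0.08, adjusted p = 0.32, limma with Benjamini-Hochberg adjustment over 251 miRNAs). Its unadjusted p was 0.070 (limma). The interval includes no change as well as HS values lower by more than 2-fold. Of all 251 miRNAs, 2.39% passed the thresholds (adjusted p under 0.05 with at least 2-fold), 1.59% as higher and 0.797% as lower in HS, and 17.5% had an unadjusted p under 0.05. Non-overlapping groups with HS lower, as for bta-miR-103, were found for 14.3% of the miRNAs. Fold changes more negative than its own were found for 21.1%, and any negative fold change for 51%. CPM is relative to the other miRNA reads, so whether the amount of bta-miR-103 itself was lower cannot be told. In such pooled EV samples, fewer vesicles that carry a miRNA and fewer copies per vesicle also cannot be told apart.

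**Figure D1:**
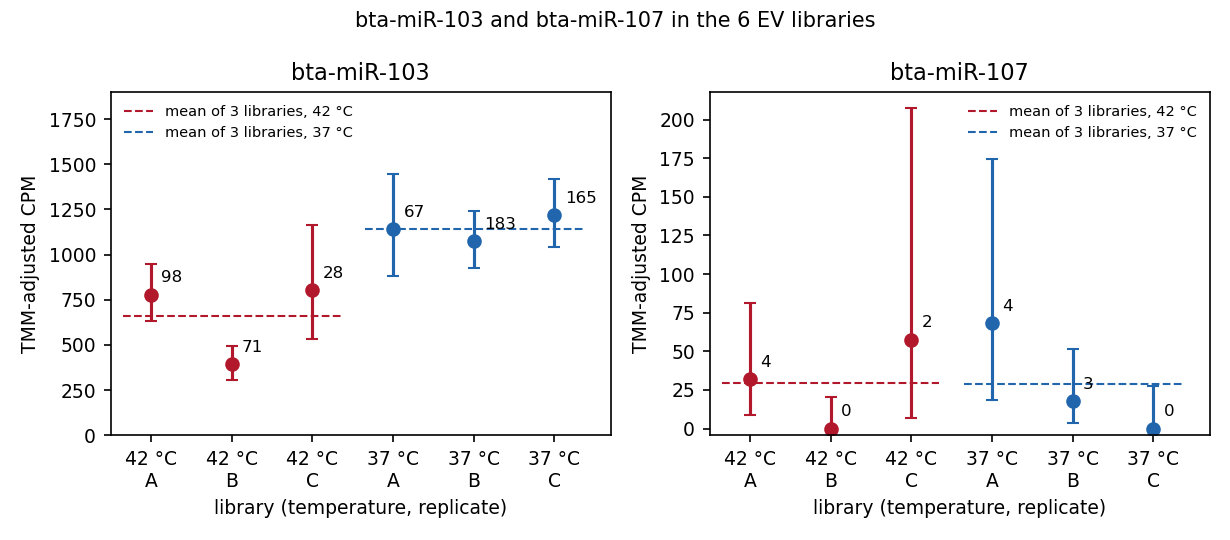
TMM-adjusted CPM (linear axis) of bta-miR-103 (left) and bta-miR-107 (right) in each library, with HS libraries (42 °C) in red and thermoneutral libraries (37 °C) in blue. Bars are exact 95% Poisson intervals of the reads, which cover counting error only, the number beside each point is its reads, and dashed lines are the means of 3 libraries; bta-miR-103 lies at 393 to 804 CPM at 42 °C and at 1075 to 1219 CPM at 37 °C, while the values of bta-miR-107 overlap.

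The reads behind bta-miR-103 set how far these values can be read. It had 98, 71 and 28 reads in the HS libraries, against 67, 183 and 165 reads in the thermoneutral ones. The counting error of a single library was 10.1 to 18.9% at 42 °C and 7.39 to 12.2% at 37 °C. The SD between libraries was 6.30% of the mean at 37 °C, under the counting error, while the HS libraries spread by more than theirs. The exact 95% Poisson interval of replicate C at 42 °C, 534 to 1162 CPM, overlapped the intervals of all 3 thermoneutral libraries. That of replicate B at 42 °C, 307 to 496 CPM, overlapped none of the other libraries. With the reads of each group pooled, the ratio of 42 °C to 37 °C was 0.507 (exact 95% interval 0.425 to 0.602). This is an interval of counting error that leaves out the spread between libraries. Pooling gives the most weight to the library where 1 read was worth the fewest CPM. At 42 °C that was replicate B (5.53 CPM), the lowest one.

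bta-miR-103 stayed lower at 42 °C on other scales. Per 1000000 miRNA reads other than miR-1246 it stood at 1579, 453 and 1367 in the HS libraries, against 2823, 2436 and 2338 in the thermoneutral ones. Per 1000000 of all miRNA reads the values were 944, 332 and 386 at 42 °C, against 2118, 1218 and 1178 at 37 °C. The groups did not overlap on either scale, although 19.9% of the miRNAs tested were likewise lower in every HS library without miR-1246 and 18.3% with it, against 3.98 and 3.59% that were higher in each. Both scales also moved the whole table down at 42 °C. The log2 fold change of bta-miR-103 was -1.34 without miR-1246 in the sum, with a median of -0.46 over all miRNAs tested, and -1.53 with it, with a median of -0.54. Relative to those medians it was -0.87 and -0.99, against -0.84 on the deposited scale. The adjusted p stayed at 0.17 on both (limma). The unadjusted p was 0.026 without miR-1246 and 0.022 with it (limma). On these scales 43 and 42 of the 251 miRNAs tested had an unadjusted p under 0.05.

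The fold change of bta-miR-103 rested in part on replicate B at 42 °C. Without that library it was -0.52 on the log2 scale (standard error 0.39, adjusted p = 0.54 by limma), and the remaining HS values, 779 and 804 CPM, still lay below all 3 thermoneutral ones. Leaving out any of the other libraries gave -1.03 to -0.81. Replicate B is the library with the most erythroid and liver miRNA reads given above. With miR-1246, miR-451, miR-486, miR-122 and miR-148a all taken out of the denominator, the pair took 0.190, 0.0964 and 0.169% of the reads in the HS libraries, against 0.379, 0.324 and 0.326% in the thermoneutral ones. Replicate B was still the lowest library there, and whether its erythroid and liver reads bear on its low value was not tested.

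**Figure D2:**
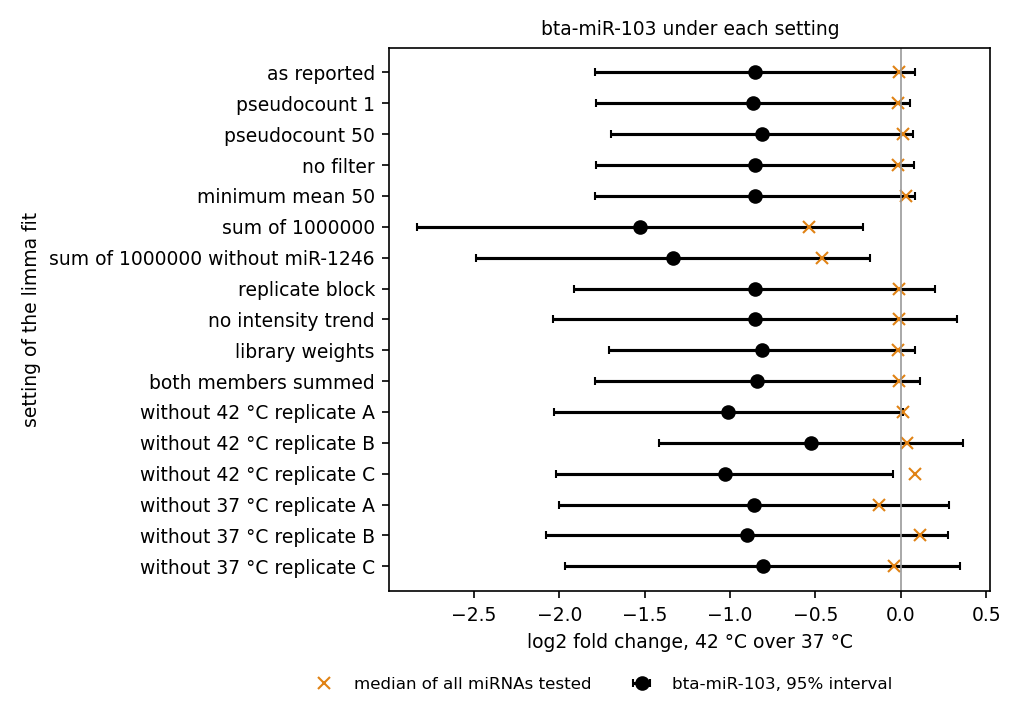
Log2 fold change of bta-miR-103 at 42 °C over 37 °C (horizontal axis) in each limma fit (rows). The row labelled as reported is the limma fit given in the text here. The other rows have another pseudocount, filter, scale or variance model, the replicate block, both members summed, or each library left out. Black points and bars are estimates with 95% intervals and orange crosses the median of all miRNAs tested in the same fit; the estimates lie between -1.53 and -0.52.

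bta-miR-107 was near the limit of detection, and no difference between temperatures was detectable at this depth. It had 4, 0 and 2 reads in the HS libraries, against 4, 3 and 0 reads in the thermoneutral ones. These are 31.8, 0 and 57.4 CPM at 42 °C, against 68.0, 17.6 and 0 CPM at 37 °C. The groups overlapped, and each had a library without a read. The library without a read at 42 °C, replicate B, allows up to 16.6 CPM, and that at 37 °C, replicate C, up to 22.2 CPM, the value of 3 reads (counting error only). The upper ends of the two-sided 95% Poisson intervals, drawn in the plot by library, lie somewhat higher, at 20.4 and 27.3 CPM. The means were 29.7 ± 28.8 CPM at 42 °C and 28.6 ± 35.3 CPM at 37 °C (SD, n = 3 each), at ranks 172 and 173.

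The log2 fold change of bta-miR-107 was 0.13 (standard error 0.98, 95% interval -1.99 to 2.25, adjusted p = 0.96, limma). Changes of the size seen for bta-miR-103 lie within its interval. Over the 6 reads at 42 °C and the 7 at 37 °C, the pooled ratio of 42 °C to 37 °C was 0.915 (0.254 to 3.18, exact 95% interval of counting error). The sign of its fold change depended on the scale and on single libraries. On the log2 scale it was -0.39 with each library scaled to 1000000 reads, -0.61 without replicate C at 37 °C and 0.93 without replicate B at 42 °C. The libraries left out there had no read, but libraries with reads moved the value as well. It was -0.44 without replicate C at 42 °C and 0.87 without replicate A at 37 °C. Without replicate A at 42 °C it was -0.10, and without replicate B at 37 °C it was 0.12.

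Within the pair, bta-miR-103 took nearly all reads. Over the 6 libraries it had 612 reads and bta-miR-107 had 13, so 47.1 reads of bta-miR-103 stood against each read of bta-miR-107, and bta-miR-107 took 2.08% of the reads of the pair (95% Wilson interval 1.22 to 3.53%). This share compares mature miRNAs of nearly equal length within a library, and no scaling between libraries enters it. It was 3.92% in replicate A (1.54 to 9.65%), 0% in replicate B (3 reads would be 4.23%, and the Wilson interval reaches 5.13%) and 6.67% in replicate C (1.85 to 21.3%) at 42 °C. At 37 °C it was 5.63% in replicate A (2.21 to 13.6%), 1.61% in replicate B (0.550 to 4.63%) and 0% in replicate C (3 reads would be 1.82%, and the Wilson interval reaches 2.28%). The mean shares of 3.53% ± 3.35 at 42 °C and 2.42% ± 2.90 at 37 °C did not differ beyond the spread (SD, n = 3 each; two-sided exact permutation, p = 0.8). Since the mature forms are known in human to differ in so few bases, a read that is short at its 3′ end or carries an error there could be counted under either name. How the counting tool assigned such reads is not given in the sources used here, and the 13 reads of bta-miR-107 are uncertain in that respect. Summed into 1 row, the pair had a log2 fold change of -0.84 (SE 0.44, adjusted p = 0.35 by limma), close to that of bta-miR-103 alone.

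The pair as a whole took a smaller part of the miRNA reads other than miR-1246 in each HS library. Its share was 0.164, 0.0453 and 0.146% in the HS libraries, against 0.299, 0.248 and 0.234% in the thermoneutral ones. The means were 0.119% ± 0.0642 at 42 °C and 0.260% ± 0.0345 at 37 °C (SD, n = 3 each; two-sided exact permutation, p = 0.1). With 3 libraries a group this is the smallest p that the test can give, and adjusted over the 4 within-library comparisons made here it was 0.13. On the scale without miR-1246, 19.9% of the miRNAs tested were likewise lower in every HS library, against 3.98% that were higher in each. Of the 625 reads of the pair, 612 were of bta-miR-103, so the share of the pair mostly repeats the result for that miRNA.

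miR-103 is used as a qPCR reference, and so it was set against 11 other miRNAs in that use, all of which had reads in every library. Relative to their geometric mean, the log2 ratio of bta-miR-103 was -0.09, -1.73 and -0.45 in the HS libraries, against 0.21, 0.01 and 0.14 in the thermoneutral ones. All HS values lay below all thermoneutral ones, and the difference was -0.88 on the log2 scale (two-sided exact permutation, p = 0.1, its minimum; adjusted p = 0.13 over 4 comparisons). Without replicate B at 42 °C the difference was -0.39. Against miR-191, miR-423-5p and miR-484 alone the values of the groups overlapped and the difference was -0.34 (two-sided exact permutation, p = 0.8). That ratio is limited by bta-miR-484, with only 2, 19 and 3 reads in the HS libraries, against 11, 18 and 37 in the thermoneutral ones. With the reads of all 11 summed in place of the geometric mean the groups also overlapped, and the difference was -1.01 (two-sided exact permutation, p = 0.2). The separation of the groups thus depended on which references were taken and how they were combined.

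Of the 11 reference miRNAs, 0 passed the test between temperatures in limma, edgeR or DESeq2, and 1 had an unadjusted p under 0.05 in limma, 2 in edgeR and 0 in DESeq2. Their median log2 fold change was 0.06, against -0.01 over all miRNAs tested, and that of bta-miR-103, at -0.86, lay below all but that of bta-miR-484, at -1.50 (adjusted p = 0.32, limma). Of the 11, 4 were lower in every HS library (bta-miR-93, bta-miR-423-3p, bta-miR-484 and bta-miR-24-3p) and 2 were higher in each (bta-miR-16b and bta-miR-30e-5p), where 14.3% and 9.96% of all miRNAs tested did so. The SD of log2(CPM + 10) over the 6 libraries was 0.60 for bta-miR-103, rank 45 from the least variable of the 147 miRNAs tested that had a read in every library (median 0.79). bta-miR-24-3p ranked 3 (0.25), bta-miR-93 of the miR-106b cluster 8 (0.32), bta-miR-191 9 (0.32) and bta-miR-26a 14 (0.35). bta-miR-423-3p (rank 21) and bta-let-7i (rank 28) also had a smaller SD than bta-miR-103. The remaining 5 had a larger one, at ranks 49 (bta-miR-30e-5p, 0.62), 93 (bta-miR-425-5p, 0.89), 96 (bta-miR-16b, 0.90), 100 (bta-miR-423-5p, 0.96) and 124 (bta-miR-484, 1.18).

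**Figure D3:**
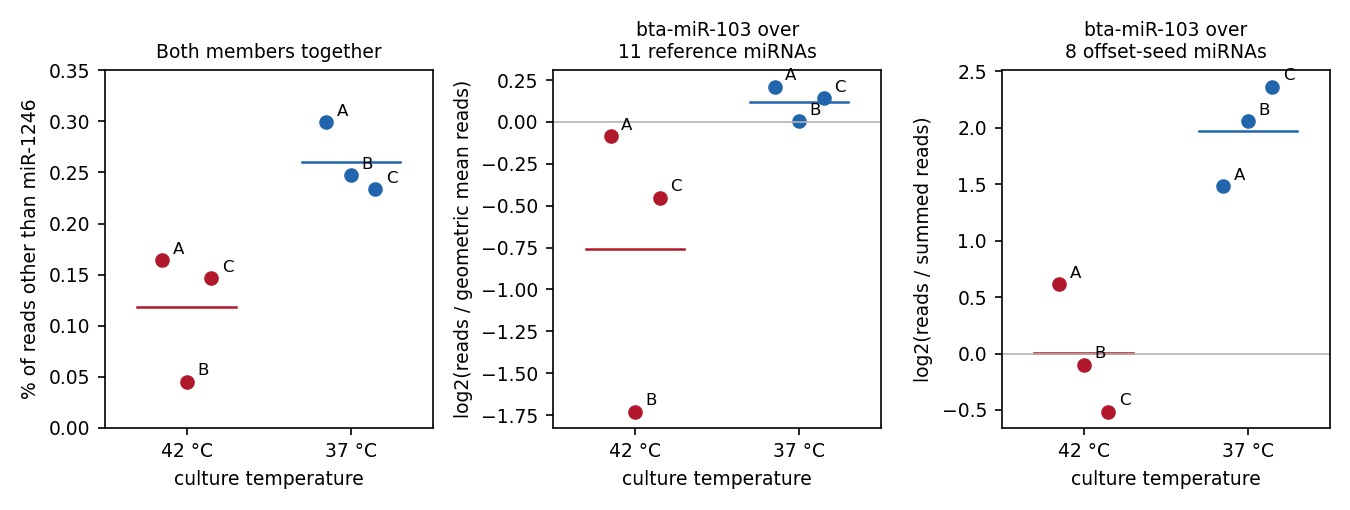
Within-library measures of the pair at 42 °C (red) and 37 °C (blue), 1 point per library with its replicate letter and a line at the mean of 3. All panels rest on the same reads of bta-miR-103 and so are not independent of each other. Left, both members as a percentage of miRNA reads other than miR-1246; middle and right, log2 ratios of bta-miR-103 reads to the geometric mean of 11 reference miRNAs and to the summed reads of 8 offset-seed miRNAs; in each panel the HS points lie below the thermoneutral ones.

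miR-15, miR-16, miR-195, miR-424, miR-497 and miR-503 carry much of the same 5′ sequence as the pair, shifted by a base, and are grouped with it in human, where they are known for targets in the cell cycle and apoptosis. The log2 ratio of bta-miR-103 reads to the summed reads of 8 such offset-seed miRNAs was 0.61, -0.10 and -0.51 in the HS libraries, against 1.48, 2.06 and 2.37 in the thermoneutral ones. bta-miR-103 thus had more reads than all 8 together in each thermoneutral library but in only 1 HS library. The difference of the log2 ratios was -1.97 (two-sided exact permutation, p = 0.1, its minimum; adjusted p = 0.13 over 4 comparisons). It owed much to bta-miR-16a, without which the difference was -1.06 and the groups overlapped (two-sided exact permutation, p = 0.2).

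Of the 8 offset-seed miRNAs, 5 were tested. In limma 0 passed and 2 had an unadjusted p under 0.05, while edgeR and DESeq2 on the recovered reads each called 1, bta-miR-16a, as higher in HS (adjusted p = 0.028 in edgeR and 0.0097 in DESeq2, which gave 2 of the 5 no adjusted p). The median log2 fold change of the 5 was -0.30 (limma), against -0.01 over all miRNAs tested. Their fold changes had both signs. bta-miR-16a stood at 407 ± 220 CPM at 42 °C and 61.9 ± 24.8 CPM at 37 °C (SD, n = 3 each; log2 fold change 2.48, adjusted p = 0.051, limma), and bta-miR-16b had a log2 fold change of 1.30 (adjusted p = 0.32). bta-miR-15b, which in human is encoded beside a miR-16 gene, stood at 23.1 ± 6.10 CPM at 42 °C and 117 ± 78.7 CPM at 37 °C (SD, n = 3 each; log2 fold change -1.77, adjusted p = 0.25, limma). bta-miR-195 and bta-miR-503-5p had log2 fold changes of -0.30 and -1.09 (adjusted p = 0.88 and 0.48, limma). These negative values rest on few reads. bta-miR-15b had 3, 3 and 1 in the HS libraries, against 12, 16 and 7 in the thermoneutral ones. bta-miR-195, whose value is the median above, had 1, 0 and 1 against 1, 3 and 1. bta-miR-503-5p had 0, 0 and 0 against 2, 2 and 0. bta-miR-15a, bta-miR-424-5p and bta-miR-497 lay under the expression threshold in both groups.

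**Figure D4:**
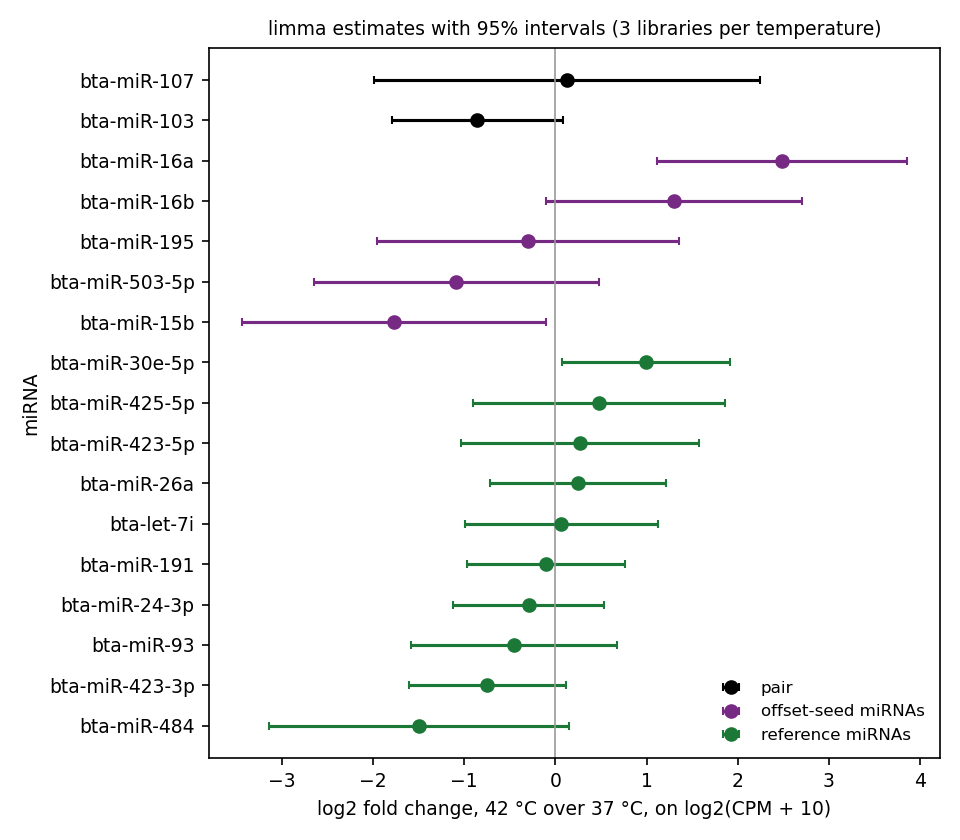
Log2 fold changes at 42 °C over 37 °C on log2(CPM + 10), limma estimates (points) with 95% intervals (bars), for the pair (black), the 5 offset-seed miRNAs tested (purple) and the reference miRNAs (green; bta-miR-16b belongs to both lists and is drawn once, in purple). bta-miR-103 lies at -0.86 with an interval that reaches 0.08, and bta-miR-107 at 0.13 with an interval from -1.99 to 2.25.

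Over the 6 libraries, Pearson's r of log2(CPM + 10) between the members was 0.33, and bta-miR-107 ranked 77 among the 250 other miRNAs by likeness to bta-miR-103. The few reads of bta-miR-107 limit this value. The 5 miRNAs most like bta-miR-103 were bta-miR-24-3p (r = 0.94), bta-miR-31 (0.94), bta-let-7e (0.93), bta-miR-23a (0.93) and bta-miR-221 (0.89), all over the same 6 libraries, whose differences in depth and scaling every miRNA shares. bta-miR-24-3p and bta-miR-23a come from clusters that also hold miR-27, and miR-221 is known to restrain the cell cycle inhibitor p27. In each of the 5 the lowest value was that of replicate B at 42 °C. Their fold changes differed nonetheless: bta-miR-24-3p had a log2 fold change of -0.29 and bta-miR-23a of -1.93, and none of the 5 passed in limma (adjusted p from 0.078 to 0.74). On the recovered reads, bta-miR-23a was called lower in HS by edgeR (adjusted p = 0.048) and DESeq2 (adjusted p = 0.023), and bta-miR-221 by DESeq2 (adjusted p = 0.033) but not by edgeR (adjusted p = 0.13). bta-miR-24-3p, bta-miR-31 and bta-let-7e were called by none of the 3 tools. Per 1000000 reads other than miR-1246, bta-miR-24-3p (0.98), bta-miR-31 (0.98) and bta-let-7e (0.97) again led the order. On the deposited scale the miRNA most like bta-miR-107 was bta-miR-30a-5p (r = 0.93), and per 1000000 reads other than miR-1246 it was bta-miR-21-5p (0.96). bta-miR-103 ranked 60 in both orders, each of 250 miRNAs over 6 libraries, and the few reads of bta-miR-107 limit both.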

How the data were processed

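Reads were trimmed by the authors and annotated against bovine miRNAs of miRBase release 22 in CLC Genomics Workbench 21 at default parameters. The deposited table holds a signal of 0 or above that they call TMM-adjusted CPM. The submitters' processing notes also name bcl2fastq, Bowtie2 2.2.2, DESeq2 and ARS-UCD1.2 without roles. Values were divided by the smallest one above 0 in each library, and 100% were whole within 0.01. These reads set the precision, and Poisson, Wilson and pooled-ratio intervals (95%) cover counting error only.

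R 4.3.3 and limma 3.58.1 (intensity trend, log2(CPM + 10)) compared the temperatures for the 251 miRNAs whose mean reached 10 CPM in either group. Calls needed an adjusted p under 0.05 and a 2-fold change, the thresholds of the study, whose negative binomial GLM needs counts. The recovered reads also went into edgeR 4.0.16 and DESeq2 1.42.0 as alternative tests. On simulated data these 3 tools were checked only for the sign of their calls and for calling larger changes more often than smaller ones. Their rate of false calls was not a criterion of that check. Within-library ratios were compared by exact permutation over libraries (SciPy 1.17.1). Alternatives changed the pseudocount, filter, scale, block, variance model, weights, test, rows and libraries. Named miRNAs were both members, the listed reference, offset-seed and metabolic miRNAs, the 5 most alike in profile and the 2 above and below in level. The members, lists and rules were chosen with earlier results of these data known. As no source ties libraries to animals, the groups were compared unpaired.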

Additional observations from a re-analysis of the deposited data

How the results depend on the processing

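The log2 fold change of bta-miR-103, or of both members where they were summed, kept its sign and stayed uncalled in all 18 alternatives (-1.53 to -0.52, adjusted p from 0.17 to 0.64). In edgeR the log2 fold change of bta-miR-103 was -0.81 (adjusted p = 0.38) and in DESeq2 -0.87 (adjusted p = 0.31). That of bta-miR-107 turned to -0.39 with libraries scaled to 1000000 in all, -0.051 when miR-1246 was left out of that total, -0.022 in edgeR and -0.13 in DESeq2, which gave no adjusted p, and ranged from -0.61 to 0.93 with each library left out in turn. With a minimum mean of 50 CPM it was not tested. Its share of the pair differed by -0.45 to 2.88 percentage points with each library left out. The causes were not tested; its 13 reads limit every value.

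The count of changed miRNAs was 6 in the limma fit given above (4 higher in HS, 2 lower). It was 10 with a minimum mean of 50 CPM and 20 (4 higher, 16 lower) with libraries scaled to 1000000 in all. When miR-1246 was left out of that total it was 14 (4 higher, 10 lower). It was 10 (5 higher, 5 lower) without the intensity trend, 11 with library weights, 13 in edgeR and 18 in DESeq2. With each library left out it ranged from 1 (without replicate B at 37 °C) to 9, and was 3 without replicate C at 37 °C. With the replicate block it was 15, and bta-miR-103 stayed uncalled (adjusted p = 0.49). No source says whether libraries with the same letter came from the same oviducts. The correlations of their deviations were -0.06, 0.03 and -0.06, and 0 of 6 libraries correlated best with their own letter. With so few libraries these values cannot show whether the letters mark shared animals.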

Other observations

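Other miRNAs known for lipid and glucose metabolism were set beside the pair. Of 13 listed, 11 had a read and 10 were tested (median log2 fold change 0.16 in limma, against -0.01 over all miRNAs tested). In limma, edgeR and DESeq2, 0 passed the test and 0 had an unadjusted p under 0.05. DESeq2 gave 3 of the 10 no adjusted p, among them bta-miR-122, which it also gave no unadjusted p. bta-miR-33a and bta-miR-33b, which lie inside the sterol regulator genes SREBF2 and SREBF1 in human, had no read in any of the 6 libraries. bta-miR-378, which lies inside the coactivator gene PPARGC1B in human, stood at 37828, 18662 and 14991 CPM in the HS libraries, against 23112, 28057 and 48814 CPM in the thermoneutral ones. Its groups overlapped (log2 fold change -0.53, adjusted p = 0.64, limma). bta-miR-375, known from pancreatic islets, stood at 323 ± 137 CPM at 42 °C and 300 ± 184 CPM at 37 °C (SD, n = 3 each; adjusted p = 0.89, limma). The groups of none of the 10 were apart, where 14.3% of the miRNAs tested were lower in every HS library and 9.96% higher.

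bta-miR-103 ranked 58 by mean CPM over the 6 libraries (902 ± 307 CPM, SD). Its neighbours in level moved in both directions: bta-miR-423-3p at rank 56 was lower in each HS library (log2 fold change -0.75, adjusted p = 0.35), bta-miR-146a at rank 57 (1.18, adjusted p = 0.21) and bta-miR-183 at rank 60 (0.79, adjusted p = 0.32) were higher in each, and bta-miR-378c at rank 59 overlapped (-0.18, adjusted p = 0.91, all limma). None of these 4 passed the test in limma, edgeR or DESeq2, and the sign of bta-miR-378c was positive in the last 2. The levels of the 4 neighbours over the 6 libraries all overlapped that of bta-miR-103, which ranged from 393 to 1219 CPM. bta-miR-107 ranked 177, between bta-miR-20b and bta-miR-652, which had 18 and 24 reads over the 6 libraries.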
